A study of Bos taurus with 24 samples.

Results

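The genes described here mark the pluripotent cells of the mammalian blastocyst: POU5F1, NANOG, SOX2, KLF4, SALL4, LIN28A, DPPA3, UTF1 and PRDM14. These 9 genes were matched by exact symbol in a table of 24621 genes counted in 24 single bovine early blastocysts. A row was found for 8 of them, and LIN28A, which had none, was not analysed here. UTF1 never reached 15 counts, whereas the other 7 had 15 counts or more in every embryo of at least 1 culture condition, the limit used for testing.

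A blastocyst has an outer trophectoderm, which forms the fetal part of the placenta, and an inner cell mass, which forms the embryo and the hypoblast. The inner cells are kept pluripotent by a core of transcription factors, POU5F1 (also called OCT4), SOX2 and NANOG, which bind regulatory DNA together and maintain each other's expression. KLF4, SALL4 and PRDM14 are DNA-binding factors that work around this core, UTF1 is a chromatin protein of undifferentiated cells, and DPPA3 is a protein carried by the oocyte that guards the early genome's DNA methylation. In cattle, POU5F1 is also found in the trophectoderm of the blastocyst, while NANOG and SOX2 become restricted to the inner cells.

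The 3 groups compared held 8 Holstein embryos each, all sired by 1 bull. In vivo derived embryos (5 male, 3 female) were flushed from superovulated cows. Embryos from serum-containing medium (3 male, 5 female) came from oocytes matured with 20% fetal bovine serum, and were then cultured in synthetic oviduct fluid with 5% fetal bovine serum. Embryos from serum-free medium (5 male, 3 female) came from oocytes matured with 20 ng/mL epidermal growth factor instead of serum, and their culture fluid held 0.4% bovine serum albumin with insulin, transferrin and selenium. Cultured blastocysts were collected on day 6 to 7, and embryos of the best morphological grade at the early blastocyst stage were kept. Embryos are named below by condition (A, in vivo; B, serum-containing; C, serum-free) and label number. The labels do not tie the in vivo embryos to their mothers or the cultured ones to one of the independent in vitro experiments, so p-values measure the spread between embryos as sampled. The cows were fewer than the in vivo embryos, and the in vitro experiments fewer than the embryos of each culture group. Some embryos of each group therefore share a mother or an experiment, and the 8 embryos of a group are not fully independent. Each library was made from 1 whole embryo: fewer inner cells and less RNA per inner cell cannot be told apart.

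Total counts ranged from 3253051 to 9000447 per embryo. Levels are given as CPM, counts relative to the library total and scaled by the trimmed mean of M-values (TMM), which can be compared between embryos but not between genes. The summed CPM of 13 trophectoderm markers was 7396 to 14764 in vivo, 550.5 to 5214 in serum-containing medium and 5048 to 28280 in serum-free medium, although CDX2, a defining trophectoderm factor, reached only 11 counts. The 12 hypoblast markers summed to 4892 to 8118, 865 to 4110 and 4271 to 7188 CPM, with SOX17 at 0 in vivo and in serum-containing medium. Cumulus cell markers summed to no more than 45.2 CPM in any embryo, and oocyte markers to 15.3 CPM or less in vivo, 167 or less with serum and 104 or less without it. A pair of embryos stood apart. B2, a female embryo from serum-containing medium, had the lowest KRT8 (38.8 CPM, a trophectoderm keratin) and the highest oocyte marker sum (167 CPM). Its trophectoderm sum, 1120 CPM, was above those of B5 (575 CPM) and B7 (550.5 CPM). B2 also had 3139 CPM of ARGFX, a homeobox gene, against 593 CPM or less in the other 7 serum embryos. C7, a male embryo from serum-free medium, had the highest trophectoderm sum (28280 CPM). The part of these embryos and markers in the results below was not tested unless values without them are given.

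A gene was called differentially expressed (DE) when the Benjamini-Hochberg adjusted p of edgeR's quasi-likelihood test was below 0.05 and the fold change was at least 2. Among the pluripotency genes, SOX2 was 2.43-fold higher in embryos from serum-containing medium than in vivo, and KLF4 was 2.21-fold higher in embryos from serum-containing than from serum-free medium. POU5F1, NANOG, SALL4, DPPA3 and PRDM14 were not called in any comparison of all embryos in which they were tested. In vivo versus serum-containing medium, 1 of the 6 genes tested was called, where 13.7% of 7339 genes were called overall. In vivo versus serum-free medium, 0 of 7 were called with this test against 2.24% of 7314 genes overall; 4 of the 7 had an unadjusted p below 0.05, edgeR's exact test called 1 (NANOG, which passed the 15-count limit only through the serum-free embryos, in which it was higher, so the call is no support) and DESeq2 called 0. Serum-containing versus serum-free medium gave 1 call of 7, against 8.97% of 7181 genes. With 6 or 7 genes tested, these counts do not set the members apart from the background. The comparisons share their groups of embryos, so the values of each stand side by side and are not independent.

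**Figure D1:**
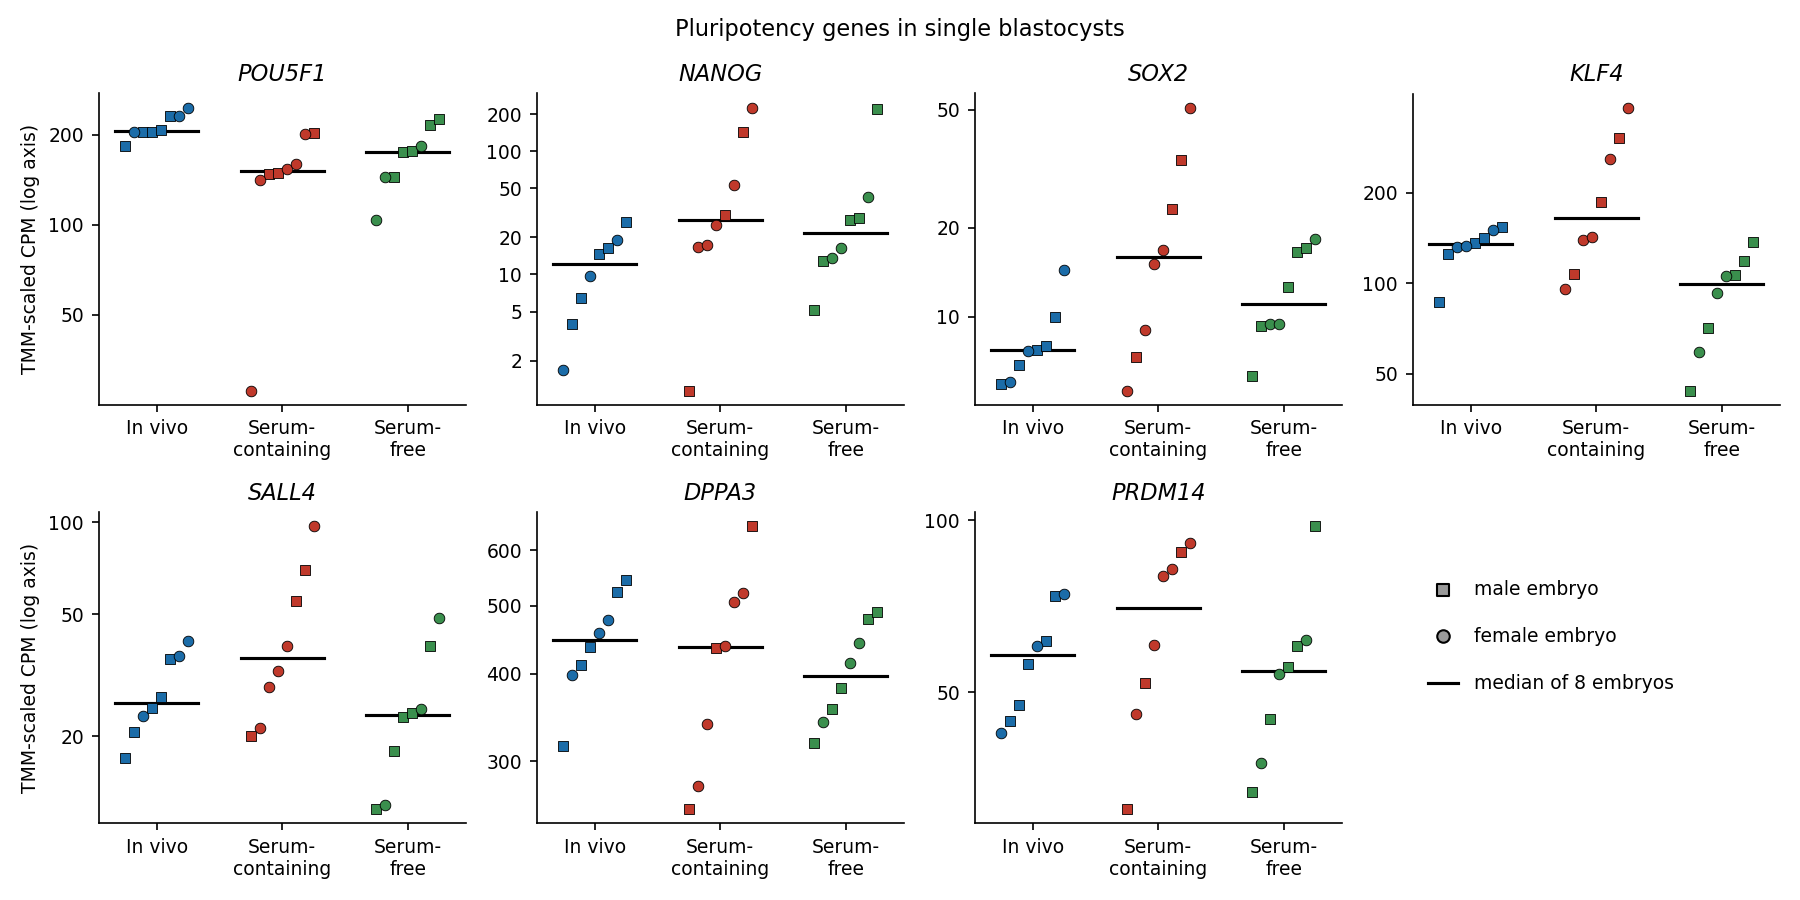
Level of each pluripotency gene in each embryo (y axis, TMM-scaled CPM on a log scale, with its own range per gene) in the 3 conditions (x axis); squares are male, circles female, and bars the median of 8 embryos. The in vivo embryos cluster tightly for POU5F1 (183 to 246 CPM), while NANOG spans 1.14 to 226 CPM in serum-containing medium.

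POU5F1, the factor at the centre of the pluripotency network, was the least variable of these genes in vivo. Its level was 183 CPM in the lowest, 206 in the median and 246 in the highest in vivo embryo, a mean of 214 ± 20.5 CPM (SD, n = 8). Embryos from serum-containing medium had 27.9, 151 and 202 CPM at the lowest, median and highest, with a mean of 148 ± 53.8. Embryos from serum-free medium had 103, 175 and 226 CPM, with a mean of 171 ± 40.0. No cultured embryo exceeded the in vivo range, and 6 of 8 serum and 5 of 8 serum-free embryos lay below it. The log2 difference was 0.52 ± 0.25 (SE) higher in vivo than with serum (95% interval 0.03 to 1.01, adjusted p = 0.121) and 0.31 ± 0.14 higher in vivo than without serum (0.05 to 0.58, adjusted p = 0.18). Neither passed the test. For in vivo versus serum the unadjusted p of the quasi-likelihood test was 0.0502, although the interval, a normal approximation, leaves out 0. Without B2 the log2 difference of in vivo minus serum was 0.37 with an adjusted p of 0.0289, still under the required 2-fold. The cultured groups did not differ from each other beyond their spread (log2 difference of serum-containing minus serum-free -0.21, interval -0.74 to 0.32, adjusted p = 0.612). The order of the means was in vivo, serum-free, serum-containing, with no neighbours separated by the test.

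SOX2, the partner with which POU5F1 binds DNA, was the only member called between in vivo derived embryos and those from serum-containing medium. Its counts were low, from 25 to 64 per embryo in vivo. In vivo embryos had 5.91 CPM at the lowest, 7.70 at the median and 14.4 at the highest, a mean of 8.32 ± 2.78 (SD, n = 8). Serum embryos had 5.64, 15.9 and 50.8 CPM, a mean of 20.2 ± 15.4. The groups overlapped: 5 serum embryos lay above the in vivo range, 2 within it and 1 below it. The log2 difference of in vivo minus serum was -1.28 ± 0.41 (95% interval -2.08 to -0.49, adjusted p = 0.0238). The call held in 15 of 16 fits that each left out 1 embryo, and was lost without B3, the embryo with 50.8 CPM (log2 difference -0.93, adjusted p = 0.0688). It was also lost when every gene with a count was tested (-1.24, adjusted p = 0.0517), and it stood without B2 and C7 (-1.39, adjusted p = 0.0141). In serum-free embryos SOX2 was 6.29, 11.0 and 18.3 CPM at the lowest, median and highest, a mean of 12.4 ± 4.44, between the other groups. It did not pass the test against in vivo (log2 difference of in vivo minus serum-free -0.58, interval -1.12 to -0.04, adjusted p = 0.225) or against serum (log2 difference of serum minus serum-free 0.70, interval -0.11 to 1.51, adjusted p = 0.24). The mean KRT8 level was 8976 CPM in vivo and 1099 CPM in the serum embryos, in which SOX2 was higher. That of FN1, a hypoblast marker, was 5399 and 1392 CPM. These genes make up most of their marker sums in vivo. Of the other genes tested in both lists, GATA2, GATA3, KRT18, KRT19, PDGFRA, COL4A1 and RSPO3 were also lower with serum. TEAD4, TFAP2C, ID2, GATA6 and SPARC were higher with serum. The part of these markers in the SOX2 value was not tested.

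Within an embryo, SOX2 counts were 0.029 to 0.0586 times the POU5F1 counts in vivo, with a median of 0.0338. The ratio was 0.0354 to 0.331 in serum-containing medium, median 0.131, and 0.036 to 0.0997 in serum-free medium, median 0.0735. The median ratios of both cultured groups lay above the highest in vivo ratio. This ratio does not depend on the scaling of the libraries, and it was examined after the values of both genes were seen and was not tested.

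NANOG, which keeps inner cells from becoming hypoblast, varied more from embryo to embryo than any other member that was tested. In vivo it was 1.68 CPM at the lowest, 12.2 at the median and 26.9 at the highest, a mean of 12.4 ± 8.51 (SD, n = 8). In serum-containing medium it was 1.14, 27.9 and 226 CPM, and the mean of 64.2 had an SD of 78.9. In serum-free medium it was 5.19, 21.9 and 220 CPM, and the mean of 45.9 had an SD of 71.2. The SD exceeded the mean in both cultured groups. The groups overlapped widely, with 3 serum and 4 serum-free embryos inside the in vivo range and 4 of each above it. The highest values came from few embryos: B2 had 226 CPM and B7 143 CPM in serum-containing medium, and C7 had 220 CPM in serum-free medium, where the next embryo had 42.9 CPM.

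NANOG was not tested between in vivo and serum embryos, since 1 embryo in each group was under 15 counts. In vivo embryo A9 had 7 counts (1.68 CPM, exact Poisson 95% interval 0.675 to 3.46) and serum embryo B1 had 4 counts (1.14 CPM, interval 0.311 to 2.92); these intervals cover counting error only. With A9 left out the gene entered the test through the in vivo embryos, with a log2 difference of in vivo minus serum of -2.24 (adjusted p = 0.0315). With B1 left out it entered through the serum embryos, in which it was higher, after the lowest of them had been removed (-2.57, adjusted p = 0.00563), so that call supports nothing. When every gene with a count was tested it was called too (-2.31, adjusted p = 0.0228). In vivo minus serum-free, the log2 difference was -1.90 ± 0.64 (interval -3.15 to -0.66, adjusted p = 0.0812). NANOG entered this test only through the serum-free embryos, in which it was higher, so the value is a description and supports no difference. It rested on C7, without which it was -0.77 (adjusted p = 0.347). Serum minus serum-free, the log2 difference was 0.47 ± 0.79 (interval -1.07 to 2.01, adjusted p = 0.705), and it ran from -0.19 without B2 to 1.62 without C7.

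Embryos with extreme NANOG were not extreme in the same way for the other core factors. In B2, NANOG counts were 8.09 times the POU5F1 counts, and POU5F1 was at its lowest of all 24 embryos (27.9 CPM). In C7, NANOG was 1.26 times POU5F1, and POU5F1 was 175 CPM, near the median of its group. In B1, NANOG was 0.0057 times POU5F1, while SOX2 (33.7 CPM), KLF4 (304 CPM) and SALL4 (69.7 CPM) were all above the in vivo range. The in vivo ratios of NANOG to POU5F1 ran from 0.0072 to 0.116.

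**Figure D2:**
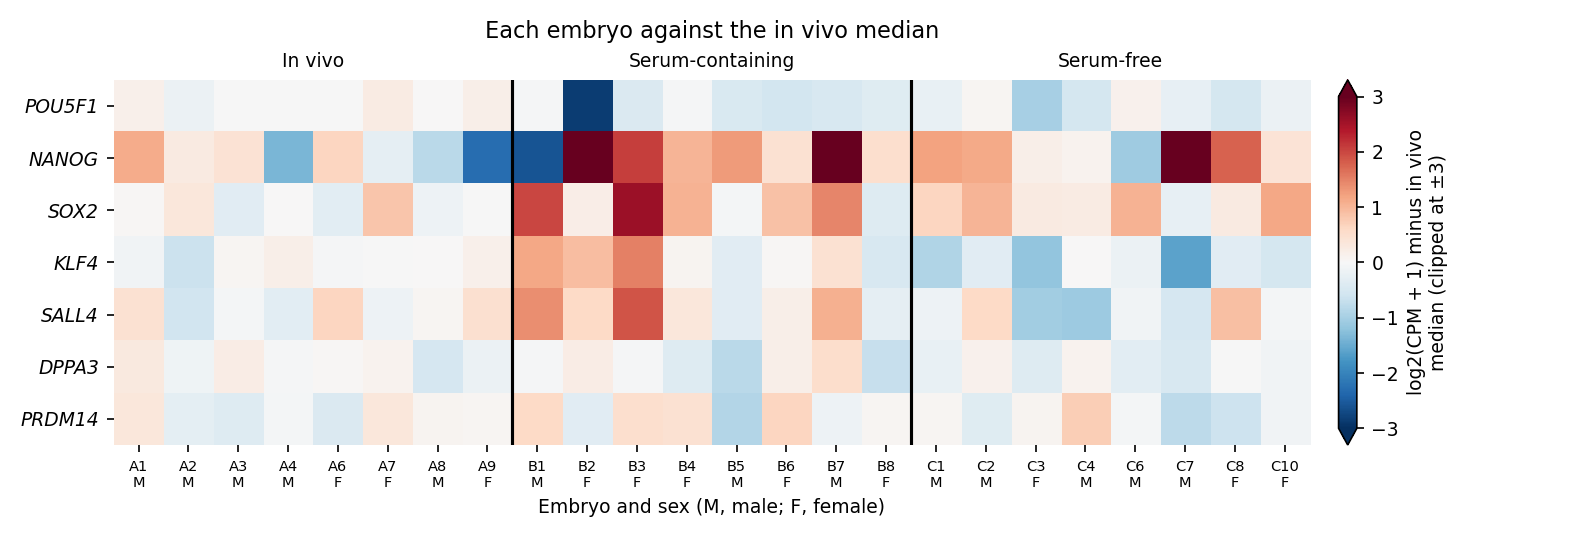
Each of 24 embryos (columns, grouped by condition, with sex) for 7 pluripotency genes (rows); colour gives log2(CPM + 1) minus the in vivo median of that gene, clipped at 3 either way. In vivo columns are pale except for NANOG, while B1, B3 and B7 are raised for SOX2 and SALL4, and B2 combines low POU5F1 with high NANOG.

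KLF4, a zinc finger factor that supports the naive pluripotent state and is also active in epithelia, differed between the culture media. In vivo it was 86.4 CPM at the lowest, 135 at the median and 154 at the highest, a mean of 132 ± 20.8 (SD, n = 8). Serum embryos had 96.2, 165 and 385 CPM, with a mean of 203 and an SD of 103. Serum-free embryos had 44.0, 99.3 and 137 CPM, with a mean of 91.9 ± 31.6. The serum group reached upwards, with 4 of 8 embryos above the in vivo range, and the serum-free group downwards, with 3 of 8 below it. The log2 difference of serum minus serum-free was 1.14 ± 0.29 (95% interval 0.57 to 1.72, adjusted p = 0.0158), and the groups overlapped. It was called in 15 of 16 fits that left out 1 embryo. Without B3, and without B2 and C7 together, the adjusted p stayed below 0.05 (0.0363 and 0.0406) but the log2 difference, 0.94 and 0.98, fell under the required 2-fold. In vivo lay between the media and was separated from neither: the log2 difference of in vivo minus serum was -0.63 ± 0.25 (adjusted p = 0.0655), and of in vivo minus serum-free 0.52 ± 0.19 (adjusted p = 0.112). C7, with the lowest KLF4, also had the highest trophectoderm sum.

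SALL4, a zinc finger protein that activates POU5F1, followed the same order of means as KLF4, with no call. The lowest, median and highest embryos had 17.0, 25.7 and 41.0 CPM in vivo, 20.0, 36.0 and 97.1 CPM with serum, and 11.5, 23.4 and 48.7 CPM without serum. All serum embryos were above the lowest in vivo embryo, and 3 exceeded the in vivo range. The log2 difference was -0.71 ± 0.31 for in vivo minus serum (adjusted p = 0.096), 0.16 ± 0.29 for in vivo minus serum-free (adjusted p = 0.802), and 0.86 ± 0.37 for serum minus serum-free (adjusted p = 0.108). The 95% interval of the last, 0.14 to 1.58, includes a 2-fold difference.

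PRDM14, which represses differentiation genes and DNA methyltransferases, was similar in level across conditions. The means were 57.5 ± 12.3 CPM in vivo, 66.4 ± 22.1 with serum and 55.6 ± 19.8 without serum (SD, n = 8 each). The embryos ranged from 42.5 to 74.3, 31.3 to 91.3 and 33.4 to 97.7 CPM, so the cultured groups reached both below and above the in vivo embryos. The log2 differences were -0.22 (in vivo minus serum, interval -0.65 to 0.20), 0.04 (in vivo minus serum-free, -0.36 to 0.43) and 0.26 (serum minus serum-free, -0.23 to 0.75), with adjusted p of 0.455, 0.94 and 0.483. All of these intervals lie inside a 2-fold difference either way.

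DPPA3, with 1267 to 2905 counts per embryo, differed little between conditions. The lowest, median and highest embryos had 316, 447 and 544 CPM in vivo, 257, 437 and 649 CPM with serum, and 319, 398 and 490 CPM without serum. All 8 serum-free embryos fell inside the in vivo range, as did 5 of 8 serum embryos. The log2 differences, all with intervals inside 2-fold, were 0.04 ± 0.18 for in vivo minus serum (interval -0.31 to 0.39, adjusted p = 0.884), 0.14 ± 0.12 for in vivo minus serum-free (-0.10 to 0.38, adjusted p = 0.565), and 0.09 ± 0.18 for serum minus serum-free (-0.26 to 0.44, adjusted p = 0.761). DPPA3 and NANOG lie next to each other in the RefSeq annotation of assembly ARS-UCD2.0, with 0 protein-coding genes between them. Their levels were nevertheless spread very differently, DPPA3 over 257 to 649 CPM and NANOG over 1.14 to 226 CPM across all embryos.

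UTF1 was near the floor of the data. It was detected in 7 of 8 in vivo embryos and in all 8 of each cultured group, with 26, 39 and 35 counts summed over the in vivo, serum and serum-free embryos. The exact Poisson 95% intervals of these sums, 17.0 to 38.1, 27.7 to 53.3 and 24.4 to 48.7 counts, overlap and cover counting error only. When every gene with a count was tested, UTF1 was not called (adjusted p = 0.706, 0.809 and 0.994 in the 3 comparisons of all embryos), and a difference was not detectable at this depth. The highest embryo was B3, with 12 counts, the embryo that also had the most SOX2, KLF4 and SALL4. In vivo embryo A9, with the least NANOG in vivo, had 0 UTF1 counts, for which the exact Poisson upper bound is 0.884 CPM.

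**Figure D3:**
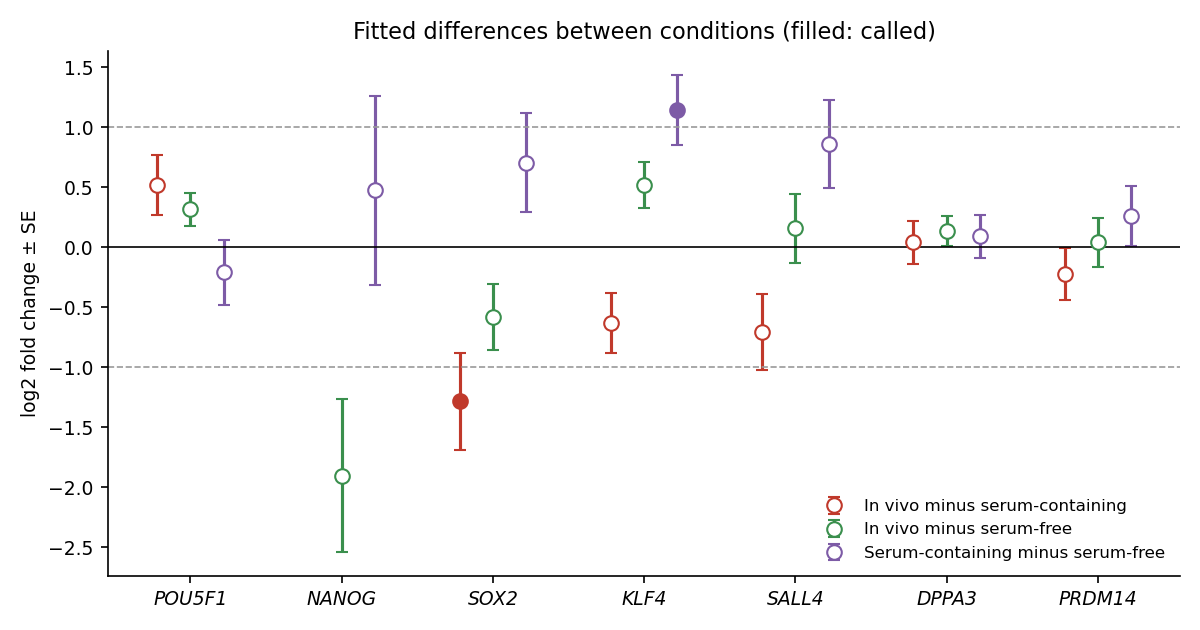
Fitted log2 differences with standard errors (y axis) for 7 pluripotency genes (x axis) in the 3 comparisons of all embryos; filled points were called and dashed lines mark a 2-fold difference. SOX2 lies at -1.28 for in vivo minus serum-containing, and KLF4 at 1.14 for serum-containing minus serum-free; NANOG has no point for in vivo minus serum-containing.

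Across the 7 genes, each cultured embryo gave 7 values to set against the in vivo range. In serum-containing medium 24 of 56 values lay within that range, 21 above and 11 below. In serum-free medium 35 of 56 lay within it, 9 above and 12 below. B3 and B7 each had 5 genes above the range and POU5F1 below it, leaving 1 gene inside. B4 was the serum embryo closest to the in vivo range, with 5 of 7 genes inside. C6 and C10 had 6 of 7 genes inside, the most of any cultured embryo. These counts describe the embryos sampled and carry no test, and the same counts over all genes were not made.

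The spread between embryos was examined after the values were seen. The SD of log2(CPM + 1) was larger in serum-containing medium than in vivo for each of the 7 genes, and larger in serum-free medium than in vivo for all but DPPA3. In serum-free medium 69% of 7557 genes had a larger SD than in vivo, with a median ratio of 1.25. Larger SDs with serum were also common to most genes: 82.7% of 7557 genes had one, with a median ratio of 1.65. The ratio was 6.60 for POU5F1 (SD 0.14 in vivo, 0.91 with serum), 2.80 for KLF4 and 2.71 for SOX2, and 1.76 to 1.88 for the remaining members. In an exact permutation test of the absolute deviations from the condition median, 0 of the 7 members passed after adjustment over all genes, where 0.992% of genes did. KLF4 (unadjusted p = 0.00761, adjusted p = 0.173) and SOX2 (unadjusted p = 0.0256, adjusted p = 0.275) had the smallest exact p. For POU5F1 the spread came from B2: without it the SD with serum was 0.21 and the ratio 1.54. For NANOG in serum-free medium the SD was 1.52 with C7 and 0.93 without it, against 1.14 in vivo. Without B2, 75% of all genes still had the larger SD with serum, while 0 genes passed the adjusted test (574 had an unadjusted exact p below 0.05).

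**Figure D4:**
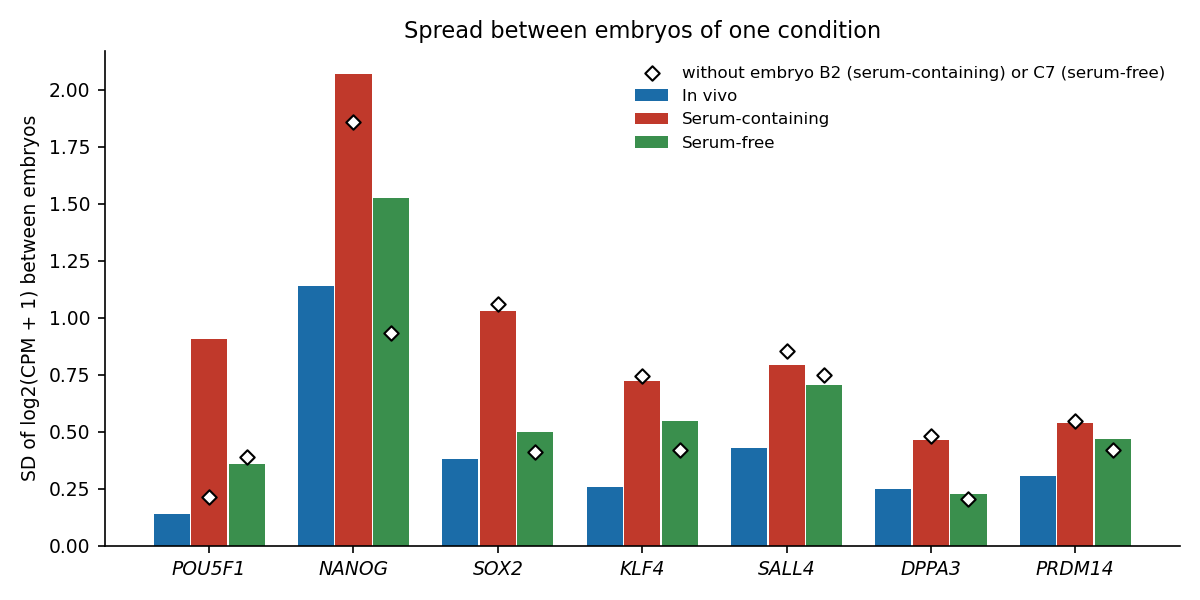
Standard deviation between embryos of log2(CPM + 1) (y axis, from 0) for 7 pluripotency genes in 3 conditions (bars, 8 embryos each); diamonds give the value without B2 in serum-containing and without C7 in serum-free medium. POU5F1 drops from 0.91 to 0.21 without B2, while SOX2 and KLF4 stay above 0.7 with serum.

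How the genes varied together from embryo to embryo was measured on values centred on each condition's mean, over 24 embryos and 21 pairs. No pair passed after adjustment over the 21 pairs, for Pearson's r or for Spearman's rho. By r the closest pair was KLF4 and SALL4, with r = 0.64 (permutation p = 0.00442, adjusted p = 0.0698) and rho = 0.58 (permutation p = 0.01, adjusted p = 0.0905), and r = 0.56 without B3 and C7, the embryos farthest from the median of KLF4. SOX2 and SALL4 had r = 0.59 (permutation p = 0.00915, adjusted p = 0.0698) and rho = 0.51 (permutation p = 0.025, adjusted p = 0.106), and r = 0.40 without B3 and B8. SOX2 and KLF4 had r = 0.62 (permutation p = 0.00997, adjusted p = 0.0698) and rho = 0.41 (permutation p = 0.0882, adjusted p = 0.232), and also r = 0.40 without those embryos. The smallest p for rho was that of POU5F1 and SOX2, with rho = 0.51 (permutation p = 0.00852, adjusted p = 0.0905), r = 0.38 (permutation p = 0.261, adjusted p = 0.497), and r = 0.37 without B2 and C3. NANOG went the other way from PRDM14, with r = -0.51 (permutation p = 0.0242, adjusted p = 0.102) and rho = -0.53 (permutation p = 0.0129, adjusted p = 0.0905), and r = -0.35 without B1 and C7. POU5F1 and NANOG had r = -0.46 (permutation p = 0.114, adjusted p = 0.264) and rho = -0.32 (permutation p = 0.112, adjusted p = 0.262), and r = -0.41 without B2 and C3.

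Within the serum-containing group alone, SALL4 followed both KLF4 and SOX2 closely. KLF4 and SALL4 had r = 0.94 (exact permutation p = 0.00099) and rho = 0.95 (exact permutation p = 0.00114) over 8 embryos, and r = 0.82 without B3 and B1. SOX2 and SALL4 had r = 0.93 (exact permutation p = 0.00174) and rho = 0.90 (exact permutation p = 0.00456), and r = 0.84 without B3 and B8. By r these 2 pairs passed when adjusted over the 21 pairs of serum embryos, but 0 of 63 tests passed when adjusted over all pairs and conditions (adjusted p = 0.0547 for each). In vivo the same pairs had r = 0.43 and -0.46, and in serum-free medium 0.28 and 0.38; the differences between conditions were not tested. The 3 serum embryos highest in SALL4 (B3, B1 and B7) were also the highest in SOX2.

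**Figure D5:**
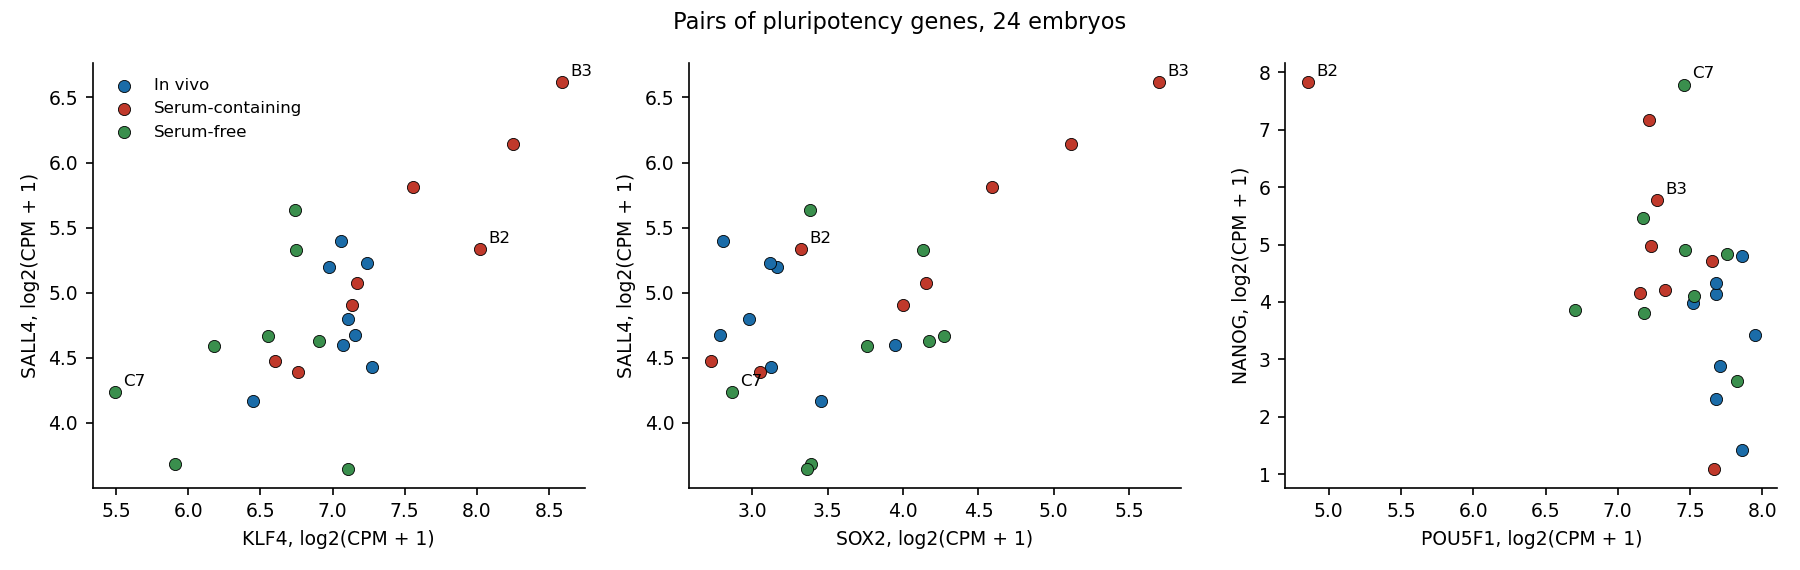
Levels of 3 pairs of genes in each of 24 embryos, on log2(CPM + 1) axes, coloured by condition; B2, B3 and C7 are named. The serum-containing embryos line up for KLF4 and SALL4 (r = 0.94) and for SOX2 and SALL4 (r = 0.93), whereas B2 stands alone at low POU5F1 and high NANOG.

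The genes whose level over the 24 embryos was most like each member were found by Spearman's rho among 7557 genes, as a description with no test, since all share the same libraries and conditions. POU5F1 was most like CMTM4 (rho = 0.87) and PKHD1 (0.82). NANOG was most like TRMU (0.75) and RPA1 (0.74), and SOX2 most like MRPS21 (0.73) and NUDT3 (0.70). KLF4 was most like SMIM13 and ZBTB10 (0.82 each), and SALL4 most like DUSP1 (0.83) and PARD3 (0.83). DPPA3 had the weakest best matches, SNX19 (0.66) and LMO2 (0.63), and PRDM14 was most like MED22 (0.71) and MUL1 (0.65). No member was among the 2 closest genes of another.

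Male and female embryos were also compared separately, with 3 to 5 embryos a group. In each of these 7 comparisons 0 of the 7 members tested were called by the quasi-likelihood test. In males, in vivo versus serum-containing medium, 13.3% of all genes were called; 3 members (NANOG, SOX2 and SALL4) had an unadjusted p below 0.05, and edgeR's exact test and DESeq2 each called 1, SOX2. Male SOX2 was 5.91, 6.88, 7.73, 7.95 and 9.99 CPM in vivo and 7.31, 23.1 and 33.7 CPM with serum (log2 difference of in vivo minus serum -1.45 ± 0.49, adjusted p = 0.0584). In females the same comparison called 0.418% of genes, 1 member (NANOG) had an unadjusted p below 0.05, and DESeq2 called NANOG while the exact test called 0. NANOG passed the 15-count limit there only through the serum females, in which it was higher, so neither value supports a difference. In vivo versus serum-free medium, 0.966% of genes were called in males and 0.304% in females; 1 member (NANOG) and 2 members (POU5F1 and KLF4) had an unadjusted p below 0.05, and neither other tool called any. Males and females of the same condition differed in 0.653% of genes in vivo, 0.173% with serum and 0.139% without serum, and no member had an unadjusted p below 0.05 or was called by the exact test or DESeq2.

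In female embryos POU5F1 and KLF4 had comparisons without overlap, though neither was called. The share of all genes without overlap in groups this small was not counted, so these values are a description. Female POU5F1 was 204, 232 and 246 CPM in vivo, against 27.9, 141, 153, 159 and 200 CPM with serum and 103, 144 and 184 CPM without serum, so the in vivo females lay above both cultured groups. The log2 difference was 0.73 ± 0.47 from serum (adjusted p = 0.392) and 0.66 ± 0.23 from serum-free medium (adjusted p = 0.244). Female KLF4 was 132, 134 and 150 CPM in vivo and 59.1, 92.8 and 106 CPM without serum, also without overlap (log2 difference 0.69 ± 0.24, adjusted p = 0.248). Whether the effect of culture differed between the sexes was tested as an interaction. It was called for 0 of 8446 genes with serum-containing medium and 0 of 8425 with serum-free medium. The member with the smallest interaction p was POU5F1 with serum-free medium (unadjusted p = 0.0538, adjusted p = 0.757).

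A wider list of 40 genes tied to pluripotency was set beside the members, of which 32 had a row. In vivo versus serum-containing medium, 17 were tested and 4 called, where 13.7% of all genes tested were called. The median log2 difference was 0.11 against -0.05 over all genes tested. The de novo DNA methyltransferases were higher in vivo: DNMT3A was 344 to 691 CPM in vivo and 2.84 to 138 CPM with serum (log2 difference 2.48 ± 0.41, adjusted p = 0.000446), and DNMT3B was 21.6 to 67.2 and 0.307 to 17.5 CPM (2.41 ± 0.49, adjusted p = 0.00189). Neither gene's groups overlapped, and the share of all genes without overlap was not counted. Both passed the 15-count limit only through the groups in which they were higher, here and between the culture media, so their calls are given as a description. IL6ST, the signal-transducing receptor shared by interleukin 6 and leukaemia inhibitory factor, was higher in vivo by 1.39 ± 0.34 (adjusted p = 0.00528). ARGFX was higher with serum, at 152 to 3139 CPM against 34.9 to 117 CPM in vivo (log2 difference of in vivo minus serum -3.26 ± 0.59, adjusted p = 0.000824, and -2.08 without B2). In vivo versus serum-free medium 0 of 16 were called by this test, where 2.24% of all genes tested were called. The exact test and DESeq2 also called 0 of the 16, and 3 of them had an unadjusted p below 0.05. STAT3, which carries the signal of these receptors, was the 1 gene of the list below an adjusted p of 0.05 there, at a log2 difference of 0.62 ± 0.17 (adjusted p = 0.0326). Serum versus serum-free medium gave 3 calls of 16, against 8.97% of all genes tested, with a median log2 difference of -0.05 against 0.04 over all genes. With 16 or 17 genes tested, these counts do not set the list apart from the background. DNMT3A and DNMT3B were lower with serum (log2 difference of serum minus serum-free -1.82 and -2.13) and ARGFX higher (3.02). In vivo versus serum, the exact test called 5 of the 17, with NR5A2 added. Between the media, the exact test and DESeq2 each called 4 of the 16, again with NR5A2. This gene was higher with serum (in vivo minus serum -1.16, serum minus serum-free 1.45). It passed the 15-count limit only through the serum embryos, so these calls support no difference.

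The markers of the blastocyst's other cell types moved in the same comparisons. Of 13 trophectoderm genes, 8 were tested in vivo versus serum-containing medium and 6 called, 5 higher in vivo and ID2 higher with serum. Over all genes tested there, 13.7% were called. KRT19 (log2 difference 3.48), KRT8 (3.01) and KRT18 (2.62), keratins of the outer epithelium, had the largest differences towards in vivo. The same 6 were called between serum and serum-free embryos, where 8.97% of all genes tested were called. Between in vivo and serum-free embryos 0 of 8 were called by any of the 3 tools, with 1 at an unadjusted p below 0.05. The quasi-likelihood test called 2.24% of all genes there. Without B2 and C7 the 5 keratin and GATA genes were still called in both comparisons with serum embryos, while ID2 was not. Of 12 hypoblast genes, 6 were tested in vivo versus serum-containing medium: PDGFRA (2.01) and FN1 (1.94) were called higher in vivo, and the values of SPARC (-0.71) and GATA6 (-0.20), not called, had the opposite sign. Between in vivo and serum-free embryos, LAMA1 was lower in vivo than without serum (log2 difference -3.47). Between serum and serum-free embryos, 1 of 6 hypoblast genes was called, LAMA1, lower with serum (-3.01). The exact test called 2 there and DESeq2 4. The median log2 difference of serum minus serum-free was -1.20 for this list against 0.04 over all genes tested, and GATA6 (0.39) had the opposite sign. The cumulus and oocyte lists held 1 or 0 genes that could be tested, with no call by any of the 3 tools in the comparisons of all embryos. CYP19A1, of the cumulus list, was called in males, higher in vivo than with serum (log2 difference 2.68, adjusted p = 0.0395). It was the only gene of that list tested in that comparison, so the call does not describe the list. CYP19A1 in that comparison passed the 15-count limit only through the group in which it was higher. The same held for KRT19, GATA2 and GATA3 in both comparisons with serum embryos. It also held for ID2 between the media and for LAMA1 in both comparisons with serum-free embryos. In the comparisons that called SOX2 or KLF4, the keratin and GATA2 and GATA3 levels were lower in the serum embryos and ID2 was higher, while TEAD4 (log2 difference of in vivo minus serum -0.75) and TFAP2C (-0.35) were not called. The part of these markers in the CPM of the pluripotency genes was not tested.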

How the data were processed

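RNA of single embryos was amplified from poly(A) tails with a kit that does not mark strand and sequenced. The authors mapped trimmed reads to the bovine genome build UMD3.1 with CLC Genomics Workbench and deposited counts of uniquely mapped exon reads per gene for 24 embryos. Embryos were grouped by the labels. TMM factors were taken with library sizes over all listed genes, and CPM used the 7557 genes with at least 15 counts in every embryo of at least 1 condition. Per comparison, genes with at least 15 counts in every embryo of 1 group or the other were tested with edgeR 4.0.16 (quasi-likelihood; R 4.3.3), with Benjamini-Hochberg adjustment over all genes tested; standard errors were derived from the F statistic. DESeq2 1.42.0, edgeR's exact test, other filters and scalings, sex as a covariate, 1 fit over all embryos, a replicate block and leaving out each embryo were alternatives. Correlations used 100000 permutations within condition and SciPy. The scripts were tested on simulated data. Genes, lists and tests were chosen with earlier results of these data known. The 9 genes and their lists were named first by symbol, then the 2 most correlated genes of each. The 24 embryos were sequenced over 2 lanes, and which embryo was on which is not given in the sources used here, so lane and condition could not be separated. The spread test, library sizes over the genes tested, and the fits without B2 and C7 were added after seeing the data.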

Additional observations from a re-analysis of the deposited data

Results flagged for a closer look

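In 4 of 24 gene and condition groups of 8 embryos, 1 embryo lay far from the rest. Its gap to the nearest other embryo was over 0.526 of the group's whole range (Dixon's critical value for 8). About 1 in 20 such groups is flagged by chance when values are normally distributed. The CPM were not shown to be so, and the rate for them is not known. POU5F1 in serum-containing medium was 27.9 CPM in B2, with the next embryo at 141 CPM. NANOG in serum-free medium was 220 CPM in C7, with the next at 42.9 CPM. KLF4 in vivo was 86.4 CPM in A2, with the next at 125 CPM. PRDM14 in serum-free medium was 97.7 CPM in C4, with the next at 61.8 CPM.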

How the results depend on the processing

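In vivo versus serum-containing medium, 1 member was called, 0 under the replicate block and 0 to 2 when 1 embryo was left out (0 without B3, 2 without A9 or without B1). In vivo versus serum-free medium, 0 were called, 1 by edgeR's exact test (NANOG, log2 difference -1.90, adjusted p = 0.0337, tested only through the serum-free embryos, in which it was higher). Serum versus serum-free medium, 1 was called, 0 under the replicate block, 0 without B2 and C7, and 0 to 1 when 1 embryo was left out. In males, in vivo versus serum, 0 were called, 1 (SOX2) by edgeR's exact test, by DESeq2 and with 15 counts required in every embryo, and 0 to 2 when 1 embryo was left out; in females, 1 (NANOG, tested only through the serum embryos) by DESeq2. Pairs of correlated members went from 0 over all embryos to 2 in serum embryos alone. Small differences changed sign: PRDM14 (in vivo minus serum-free) to -0.0331 without B2 and C7 and from -0.0331 to 0.204 with 1 embryo left out, DPPA3 from -0.036 to 0.155 (in vivo minus serum) and -0.0193 to 0.169 (serum minus serum-free), and NANOG (serum minus serum-free) from -0.191 to 1.62. The other values past 0 were -0.0236, -0.0253 and -0.028 for PRDM14 without A1, A7 and C8, and -0.0089, -0.002 and -0.0283 for DPPA3 (in vivo minus serum) without A1, B4 and B8; the cause was not tested.

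The labels do not say whether equal replicate numbers mark a shared experiment. In each comparison of all embryos, 0 of 7 same-numbered pairs correlated over 0.1, which cannot exclude a shared experiment. Under the block 704, 82 and 27 genes were called (in vivo versus serum, in vivo versus serum-free, serum versus serum-free), against 919, 136 and 434 in the same embryos without it. Across all settings other than leaving out 1 embryo, the genes called went from 1008 to between 544 and 1403 in the first comparison, from 164 to between 67 and 207 in the second and from 644 to between 27 and 847 in the last. In single sexes they went from 34 to 585 (female, in vivo versus serum, DESeq2), from 74 to between 8 and 201 (male, in vivo versus serum-free), from 25 to between 0 and 232 (female, in vivo versus serum-free), and between males and females from 52 to between 23 and 119 in vivo, from 13 to between 0 and 97 with serum and from 11 to between 0 and 57 without serum. Depth limits UTF1 (0 to 12 counts per embryo), NANOG (4 to 955) and SOX2, with 25 to 64 counts per embryo in vivo.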
